A study of Mus musculus with 12 samples.

Results

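The genes described here are the receptors for the myeloid colony-stimulating factors and the C/EBP transcription factors that act with them, measured in type 2 conventional dendritic cells (cDC2) of mouse spleen. They were taken by symbol from an RNA-seq table: the CSF-1 receptor gene Csf1r, the GM-CSF receptor genes Csf2ra, Csf2rb and Csf2rb2, the G-CSF receptor gene Csf3r, and Cebpa, Cebpb and Cebpd, which are 8 of the 55322 genes listed. Mice were 7 to 8 weeks old, received 5 mg/kg LPS by the intraperitoneal route, and gave their spleens 4 days later. L-cDC2 (tdTomato+) and M-cDC2 (tdTomato-) were sorted from Il7r-Cre;Rosa26-lsl-tdTomato mice, in which Cre driven by the Il7r locus labels cells that have expressed the IL-7 receptor and their progeny. For the other 2 groups, wild-type CD45.2+ progenitors were placed directly into the marrow of B6.SJL hosts (CD45.1+), which still had blood cells of their own: CLP-cDC2 descend from injected common lymphoid progenitors (CLP) and CDP-cDC2 from injected common dendritic cell progenitors (CDP). The labels give C57BL/6J wild-type mice for the study. Each group had 3 libraries, and none came from mice without LPS. The comparison of lymphoid with myeloid origin was thus made in 2 systems, once by fate label (L-cDC2 against M-cDC2) and once by transfer (CLP-cDC2 against CDP-cDC2).

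As background, CSF-1, GM-CSF and G-CSF are the growth factors of macrophages, of granulocytes and dendritic cells, and of neutrophils. Csf1r encodes a receptor tyrosine kinase of the same class as Flt3, the receptor that dendritic cells need for their growth. The GM-CSF receptor pairs a ligand-binding alpha chain (Csf2ra) with the common beta chain (Csf2rb), and mice carry a second beta chain (Csf2rb2) that serves IL-3 alone. C/EBP-alpha and the ETS factor PU.1 (Spi1) are known to switch on these receptor genes in myeloid progenitors, C/EBP-beta acts in emergency granulopoiesis, and C/EBP-delta is induced by inflammatory signals.

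The starts of 3 receptor genes are shown because PU.1 and C/EBP factors, whose own genes are described below, are known to act on receptor genes of this kind. The sequences run 5′ to 3′ on the strand of each gene, from 250 bases before to 50 after the RefSeq start in GRCm38.p6, at chr19:61228369-61228668 (minus) for Csf2ra, chr15:78305672-78305971 (minus) for Csf2rb2 and chr4:126024409-126024708 (plus) for Csf3r. Capitals mark GAGGAA, the core that PU.1 and other ETS factors read, and TTNNGNAA, a short form of the C/EBP site, both searched on both strands.
Csf2ra: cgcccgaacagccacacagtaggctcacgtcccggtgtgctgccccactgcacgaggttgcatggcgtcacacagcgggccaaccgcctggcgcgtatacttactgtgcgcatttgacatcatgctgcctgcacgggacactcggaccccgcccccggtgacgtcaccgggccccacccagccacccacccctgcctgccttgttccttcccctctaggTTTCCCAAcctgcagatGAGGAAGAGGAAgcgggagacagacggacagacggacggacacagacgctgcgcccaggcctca
Csf2rb2: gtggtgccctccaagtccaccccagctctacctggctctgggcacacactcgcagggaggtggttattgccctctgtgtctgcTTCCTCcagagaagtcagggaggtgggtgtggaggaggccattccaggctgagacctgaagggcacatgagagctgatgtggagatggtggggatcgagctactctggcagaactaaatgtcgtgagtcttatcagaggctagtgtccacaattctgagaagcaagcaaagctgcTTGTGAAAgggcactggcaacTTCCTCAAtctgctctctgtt
Csf3r: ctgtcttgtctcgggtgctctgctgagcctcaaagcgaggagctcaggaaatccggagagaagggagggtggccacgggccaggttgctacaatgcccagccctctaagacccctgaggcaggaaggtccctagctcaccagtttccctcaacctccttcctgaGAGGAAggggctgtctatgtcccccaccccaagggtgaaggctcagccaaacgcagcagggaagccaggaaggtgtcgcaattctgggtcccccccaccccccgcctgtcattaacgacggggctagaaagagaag

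GAGGAA occurred at -14 and -8 from the start of Csf2ra, at -167 and 29 on the opposite strand of Csf2rb2 and at -86 in Csf3r. TTNNGNAA occurred at -31 in Csf2ra and at 8 and 29 in Csf2rb2, and the last of these overlapped GAGGAA. Such short motifs are common: of 32851 RefSeq promoters of 300 bases, 28.3% held GAGGAA and 40.7% held TTNNGNAA. The RefSeq windows of Cebpa and Cebpb, the other members among the 5 matched, held neither set of letters.

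In the deposited coordinates, whose build is not stated and which differ from GRCm38, the genes lie apart except for the beta chain pair. Csf2rb (ENSMUSG00000071713) spans 78209952 to 78238047 on the plus strand of chromosome 15 and Csf2rb2 (ENSMUSG00000071714) spans 78166707 to 78189921 on its minus strand. Csf2ra (ENSMUSG00000059326) spans 61212395 to 61216867 on the minus strand of chromosome 19. Csf1r (ENSMUSG00000024621) starts at 61233670 on chromosome 18 and Csf3r (ENSMUSG00000028859) at 125918343 on chromosome 4. Cebpa (ENSMUSG00000034957), Cebpb (ENSMUSG00000056501) and Cebpd (ENSMUSG00000071637) start at 34818718 on chromosome 7, 167530835 on chromosome 2 and 15705150 on chromosome 16.

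Levels are in FPKM, fragments per kilobase of gene, scaled to the assigned reads of the library, and assigned reads recovered from the FPKM steps numbered 26543345 to 73732243 per library. Tests used limma on log2(FPKM + 1) with p-values adjusted over 14538 genes that reached 1 FPKM in at least 3 libraries, and a gene was called at an adjusted p under 0.05. A log2 difference on this scale understates the change of genes near 1 FPKM. Of the 8 genes, 7 passed this filter. Cebpb did not, although Csf3r and Cebpa passed with levels near 1 FPKM in some groups. The labels do not say whether replicates were separate mice or whether L-cDC2 and M-cDC2 shared mice, so p-values here speak only of spread among these libraries, part of which may be technical. CDP-cDC2 replicate 3 stood apart from the other libraries: on the second principal component, with 22.0% of the variance, it lay at 50.6 while the others lay between -32.0 and 22.1. M-cDC2 replicate 3 lay at 40.5 on the third component, beyond the next library at 16.5. The main values are also given without CDP-cDC2 replicate 3.

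All 11 cDC2 markers examined, among them Zbtb46, Flt3, Itgax, Sirpa and Irf4, stood at 1 FPKM or more in every library. Between CLP-cDC2 and CDP-cDC2, 7 of these 11 were lower and 0 higher, where 6.12% of all genes were lower. The 5 receptor and C/EBP genes below thus fell beside the markers of the cells themselves, and the part of that shift in their results was not tested. Cd209a, a C-type lectin, averaged 13.8 ± 3.2 FPKM in CLP-cDC2 and 109.6 ± 46.5 in CDP-cDC2 (SD, n = 3 each), which is -2.85 ± 0.25 on the log2 scale (SE; limma, adjusted p = 4.3e-05). Sirpa averaged 41 ± 2.7 FPKM in CLP-cDC2 and 109.9 ± 46.3 in CDP-cDC2 (log2 difference -1.33 ± 0.24, limma adjusted p = 0.00408). Between L-cDC2 and M-cDC2, 1 of the 11 was lower and 0 higher, where 0.44% of all genes were lower. That marker was Cd209a (log2 difference -1.32), and its call was lost in 6 of 23 other settings. In bulk RNA, fewer cells of a type and less RNA per cell cannot be told apart.

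Csf1r, whose product binds CSF-1 and IL-34, had the largest log2(FPKM + 1) lineage difference of the receptor genes, while by the fold of means the low Csf2rb2 differed slightly more between CLP-cDC2 and CDP-cDC2. Its level was 9.21, 12.3 and 9.54 FPKM in L-cDC2 replicates 1 to 3, against 21.4, 17.6 and 16.2 FPKM in M-cDC2. In the transfer system it was 7.26, 6.49 and 8.76 FPKM in CLP-cDC2, against 24.0, 26.1 and 41.9 FPKM in CDP-cDC2. The lymphoid and myeloid groups did not overlap in either system, and CDP-cDC2 replicate 3 was the highest of the 12 libraries. The mean of CLP-cDC2 was 0.245 times that of CDP-cDC2. In log2 terms they differed by -1.86 ± 0.20 (SE; adjusted p = 0.000230 by limma), and by -1.62 (adjusted p = 0.000344) without CDP-cDC2 replicate 3. The mean of L-cDC2 was 0.562 times that of M-cDC2, and this difference was not called (log2 difference -0.78 ± 0.20, 95% interval -1.21 to -0.34, limma adjusted p = 0.106). Without CDP-cDC2 replicate 3, which enters that test only through the shared estimate of spread, the difference between L-cDC2 and M-cDC2 was called (adjusted p = 0.0168). From low to high, the groups ran CLP-cDC2 (7.50 ± 1.16 FPKM), L-cDC2 (10.3 ± 1.7), M-cDC2 (18.4 ± 2.7) and CDP-cDC2 (30.7 ± 9.8; SD, n = 3 each), and no pair of neighbours in this order passed the test.

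**Figure D1:**
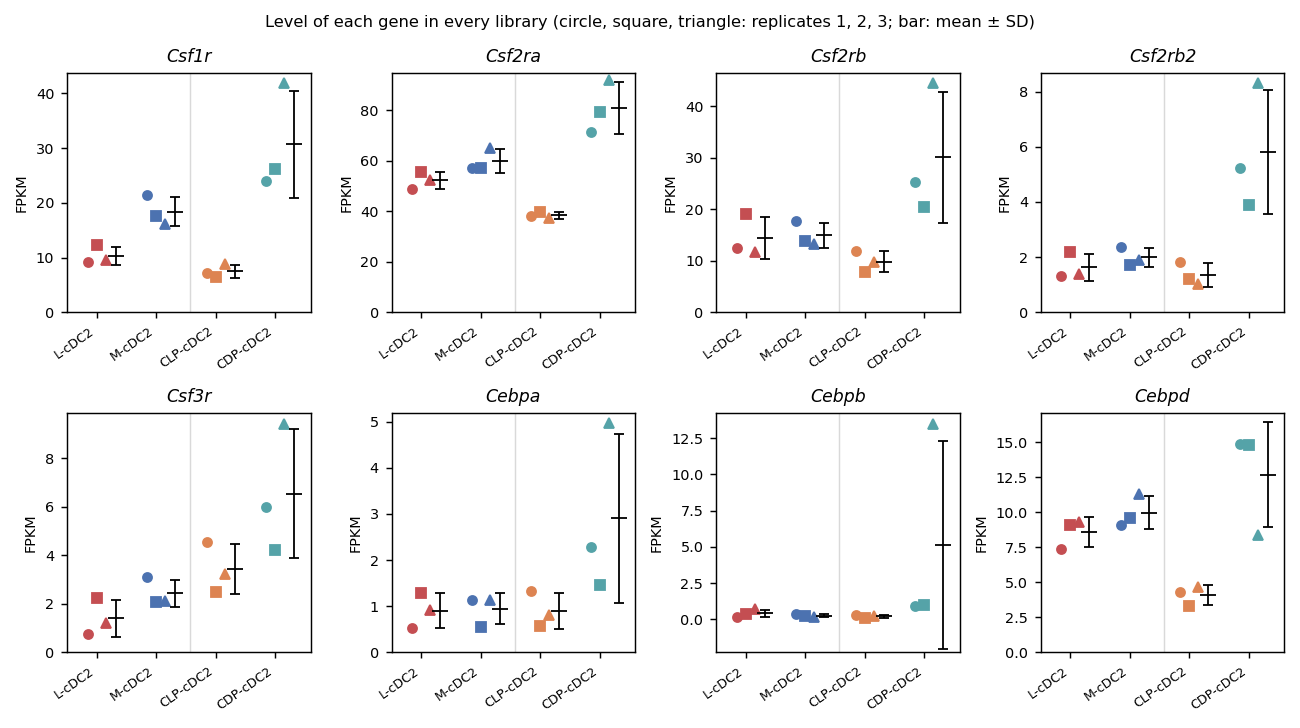
Level of each of the 8 genes in every library, in FPKM on linear axes, one panel per gene with its own scale. L-cDC2 stands left of M-cDC2 and CLP-cDC2 left of CDP-cDC2; bars to the right of the points are the mean and SD of 3 libraries. CDP-cDC2 replicate 3 (triangle) is the highest library for every gene except Cebpd, where it is at 8.35 FPKM below the other CDP-cDC2 libraries.

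Csf1r can be set against Flt3, its relative in the same kinase class, which averaged 92.6 ± 5.7 FPKM in L-cDC2, 95.4 ± 7.9 in M-cDC2, 101.7 ± 4.37 in CLP-cDC2 and 101.5 ± 17.5 in CDP-cDC2 (SD, n = 3 each). Flt3 was not called in any of the 6 comparisons, and the 95% interval of its log2 difference between CLP-cDC2 and CDP-cDC2 ran from -0.26 to 0.29. The log2 ratio of Csf1r to Flt3, with 0.1 FPKM added to each, averaged -3.16 ± 0.22 in L-cDC2 against -2.37 ± 0.13 in M-cDC2, and -3.75 ± 0.24 in CLP-cDC2 against -1.75 ± 0.53 in CDP-cDC2 (SD, n = 3 each). The lymphoid libraries lay below all myeloid ones of the same system. Over both systems the ratio was lower by a mean of -1.39 in cells of lymphoid origin (exact permutation test within systems, two-sided, p = 0.005, the smallest that its 400 arrangements allow). Within a single system, exact permutation of 3 libraries against 3 cannot go below p = 0.1, which both systems reached.

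Some monocyte and macrophage genes also differed. The summed level of 12 markers was 499 to 550 FPKM in L-cDC2 and 564 to 674 FPKM in M-cDC2, and 395 to 474 FPKM in CLP-cDC2 and 587 to 686 FPKM in CDP-cDC2. Most of that sum was Cd68, a lysosomal protein (364 to 381 FPKM in CLP-cDC2 and 481 to 561 FPKM in CDP-cDC2). Of 9 tested markers, 4 were lower and 0 higher in CLP-cDC2 than in CDP-cDC2 (median log2 difference -1.33), where 6.12% of all genes were lower. In L-cDC2 relative to M-cDC2, 2 were lower and 0 higher (median -0.05), where 0.44% of all genes were lower. Cd14 is in both counts, although it was under 1 FPKM in every L-cDC2 and CLP-cDC2 library. It passed the filter only through the myeloid groups, so its place in these counts was favoured by the filter. Mertk, a receptor that marks macrophages, was under 1 FPKM in all 12 libraries. The part of such cells in the Csf1r difference was not tested.

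Of these receptor genes, Csf2ra, which encodes the alpha chain of the GM-CSF receptor, had the highest RNA level. Csf2ra stood at 49.0, 55.7 and 52.4 FPKM in L-cDC2 against 57.1, 57.3 and 65.2 FPKM in M-cDC2, and at 38.3, 39.8 and 37.2 FPKM in CLP-cDC2 against 71.2, 79.5 and 91.9 FPKM in CDP-cDC2. The groups did not overlap in either system, by a narrow margin in the fate-labelled mice. Csf2ra fell in CLP-cDC2 to 0.475 times its mean in CDP-cDC2 (log2 difference -1.05 ± 0.12, SE, limma adjusted p = 0.000262; -0.95 without CDP-cDC2 replicate 3). Between L-cDC2 and M-cDC2 it was not called, and the interval of -0.44 to 0.06 leaves out a difference as large as that of the transfer system. From low to high the means ran CLP-cDC2, L-cDC2, M-cDC2 and CDP-cDC2, and of the neighbours only CLP-cDC2 and L-cDC2 differed beyond the test.

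The common beta chain gene Csf2rb, which also serves the IL-3 and IL-5 receptors, was at 12.4, 19.1 and 11.8 FPKM in L-cDC2 against 17.6, 13.8 and 13.3 FPKM in M-cDC2. It was at 11.9, 7.79 and 9.71 FPKM in CLP-cDC2 against 25.2, 20.4 and 44.5 FPKM in CDP-cDC2. L-cDC2 and M-cDC2 overlapped fully, whereas CLP-cDC2 lay below all CDP-cDC2 libraries. The CLP-cDC2 mean was 0.326 times the CDP-cDC2 mean (log2 difference -1.47 ± 0.26, SE, limma adjusted p = 0.00393; -1.15 without CDP-cDC2 replicate 3, adjusted p = 0.00883). Between L-cDC2 and M-cDC2 the log2 difference was -0.07, with an interval of -0.64 to 0.50.

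Csf2rb2, the IL-3-specific beta chain gene, was at 1.32, 2.202 and 1.40 FPKM in L-cDC2 against 2.36, 1.72 and 1.90 FPKM in M-cDC2, and at 1.83, 1.22 and 1.02 FPKM in CLP-cDC2 against 5.21, 3.90 and 8.30 FPKM in CDP-cDC2. The CDP-cDC2 libraries stood above the other 9. CLP-cDC2 had 0.234 times the CDP-cDC2 mean (log2 difference -1.49 ± 0.23, SE, limma adjusted p = 0.00187; -1.24 without CDP-cDC2 replicate 3). Csf2rb2 lies about 20030 bases from Csf2rb on the opposite strand, and of the 50-base stretches in its GENCODE M21 transcripts 18.4% also occur in those of Csf2rb. The sources used here do not say how reads that fit both genes were assigned, so the split between them is uncertain.

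Csf2rb2 made up a smaller part of the summed beta chain level in cells of lymphoid origin. With 0.1 FPKM added to each gene, its share was 10.7% ± 0.5 in L-cDC2 against 12.2% ± 0.7 in M-cDC2, and 12.8% ± 2.2 in CLP-cDC2 against 16.5% ± 0.8 in CDP-cDC2 (SD, n = 3 each). The lymphoid libraries did not overlap the myeloid ones of the same system. The mean difference over both systems was -2.62 percentage points (exact permutation test within systems, two-sided, p = 0.005). With 1 FPKM added to each gene the difference was -0.67 points and did not pass (exact permutation p = 0.39). The log2 ratio of Csf2ra to both beta chains averaged 1.73 ± 0.31 in L-cDC2 against 1.83 ± 0.29 in M-cDC2, and 1.798 ± 0.327 in CLP-cDC2 against 1.24 ± 0.45 in CDP-cDC2 (SD, n = 3 each). These groups overlapped in both systems, and no lineage difference was detected over both systems (0.23, exact permutation test, two-sided, p = 0.34).

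**Figure D2:**
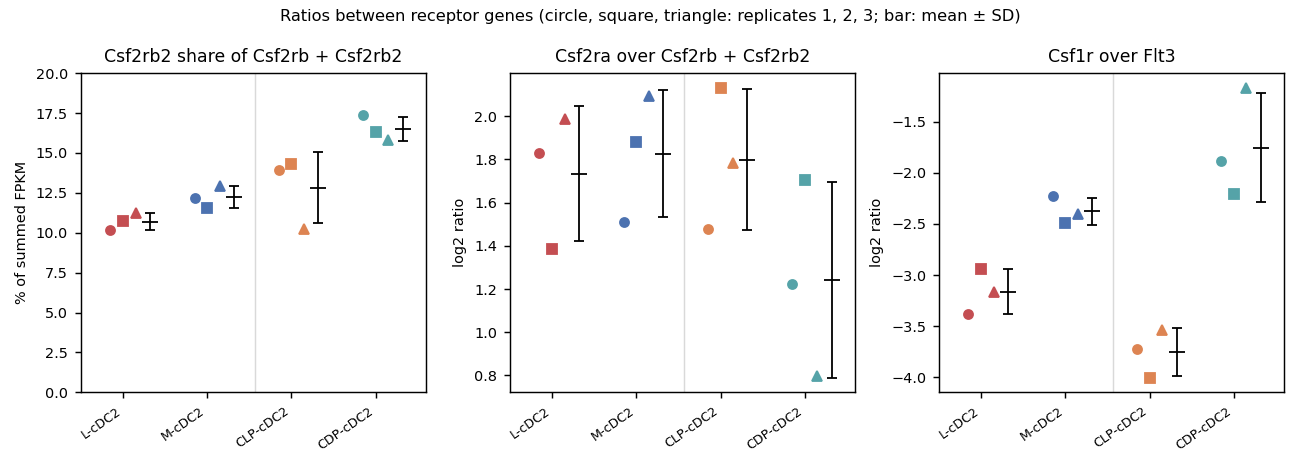
Left, the share of Csf2rb2 in the summed FPKM of Csf2rb and Csf2rb2, in percent; middle, the log2 ratio of Csf2ra to that sum; right, the log2 ratio of Csf1r to Flt3. Points are libraries and bars the mean and SD of 3; L-cDC2 points of the share and of the Csf1r to Flt3 ratio lie below those of M-cDC2, and CLP-cDC2 points below those of CDP-cDC2, while the middle ratio overlaps in both systems.

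The G-CSF receptor gene Csf3r, best known from neutrophils, was low. It was at 0.757, 2.22 and 1.199 FPKM in L-cDC2 against 3.08, 2.06 and 2.13 FPKM in M-cDC2, and at 4.53, 2.49 and 3.23 FPKM in CLP-cDC2 against 5.99, 4.21 and 9.42 FPKM in CDP-cDC2. The groups overlapped in both systems, and neither lineage difference was called (L-cDC2 minus M-cDC2, log2 difference -0.55, interval -1.16 to 0.06; CLP-cDC2 minus CDP-cDC2, -0.74, interval -1.35 to -0.13, limma adjusted p = 0.104; -0.48 without CDP-cDC2 replicate 3, adjusted p = 0.306). Csf3r was the member that stood higher in both transferred groups: the CLP-cDC2 libraries lay above all L-cDC2 libraries (log2 difference 0.90 ± 0.28, SE, limma adjusted p = 0.0592) and the CDP-cDC2 libraries above all M-cDC2 libraries (1.09 ± 0.28, SE, limma adjusted p = 0.0607), without passing the test. Csf3r was called as higher in CLP-cDC2 than in L-cDC2 in 7 of 22 other settings (lowest adjusted p = 0.0134), among them without CDP-cDC2 replicate 3 (0.0285) or replicate 2 (0.0489), and as higher in CDP-cDC2 than in M-cDC2 in 3 of 22 (lowest 0.0191). The sum of 8 neutrophil markers reached 45.5 FPKM in L-cDC2 and 15.6 FPKM in M-cDC2, each in replicate 2. It was at most 1.97 FPKM in CLP-cDC2 and 0.752 FPKM in CDP-cDC2. L-cDC2 replicate 2 was also the highest L-cDC2 library for Csf3r, whereas M-cDC2 replicate 2 was the lowest M-cDC2 library. In both of these libraries, 4 of the 8 markers (S100a8, S100a9, Ngp and Camp) stood at 1 FPKM or more. Retnlg was at 0 in all 12 libraries and Ly6g at or near 0. The part of neutrophil RNA in the Csf3r levels was not tested.

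Cebpd was the best expressed of the 3 C/EBP genes and the one with a called lineage difference. It was at 7.36, 9.08 and 9.30 FPKM in L-cDC2 against 9.06, 9.58 and 11.3 FPKM in M-cDC2, and at 4.33, 3.28 and 4.64 FPKM in CLP-cDC2 against 14.9, 14.8 and 8.35 FPKM in CDP-cDC2. L-cDC2 and M-cDC2 overlapped, and the CLP-cDC2 libraries were the 3 lowest of the 12. CLP-cDC2 had 0.322 times the CDP-cDC2 mean (log2 difference -1.40 ± 0.20, SE, limma adjusted p = 0.00121), and here leaving out CDP-cDC2 replicate 3 made the difference larger (-1.65). Cebpd shares 1808 bases of its span with Spidr on the opposite strand, which was at 2.14 to 3.94 FPKM. Csf1r likewise shares 873 bases at its end with Hmgxb3 (0.841 to 2.79 FPKM), and Cebpa 313 bases with the lncRNA Gm45091 (0 to 1.26 FPKM). The sources used here do not say if strand was used in counting, and without it the reads of such pairs cannot be told apart. On their own strand, Csf2rb and Csf2rb2 each share 62 bases with a microRNA entry, mmu-mir-7676-1. These entries were at 19.5 to 210 FPKM and 3.62 to 49.2 FPKM, highest in CDP-cDC2 replicate 3. Csf1r likewise shares 64 bases with Mir6983 (0 to 1.74 FPKM). Strand cannot separate the reads of these pairs.

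Cebpa was at 0.518, 1.28 and 0.913 FPKM in L-cDC2 against 1.14, 0.551 and 1.14 FPKM in M-cDC2, and at 1.32, 0.565 and 0.804 FPKM in CLP-cDC2 against 2.29, 1.46 and 4.96 FPKM in CDP-cDC2. L-cDC2 and M-cDC2 overlapped, and CLP-cDC2 lay below CDP-cDC2. That difference fell just short of the threshold (log2 difference -0.96 ± 0.295, SE, limma adjusted p = 0.05004) and was -0.60 without CDP-cDC2 replicate 3. Cebpb was at 0.167, 0.405 and 0.691 FPKM in L-cDC2 against 0.347, 0.261 and 0.144 FPKM in M-cDC2, and at 0.313, 0.0874 and 0.240 FPKM in CLP-cDC2 against 0.954, 1.01 and 13.4 FPKM in CDP-cDC2. CDP-cDC2 replicate 3 was far above the other libraries, with 825 recovered reads there and between 6 and 85.2 elsewhere, and the other CDP-cDC2 libraries also lay above all L-cDC2, M-cDC2 and CLP-cDC2 libraries. With no filter on low values, Cebpb was not called between CLP-cDC2 and CDP-cDC2 (log2 difference -1.67, limma adjusted p = 0.273). Cebpb shares 908 bases of its span with Tmem189 on the opposite strand, which was also highest in that library (31.5 FPKM, against 7.67 to 21.6 FPKM in the other 11). The log2 ratio of Cebpa to Cebpb averaged 1.01 ± 0.575 in L-cDC2 against 1.56 ± 0.75 in M-cDC2, and 1.67 ± 0.23 in CLP-cDC2 against 0.08 ± 1.35 in CDP-cDC2 (SD, n = 3 each), with no lineage difference detected over both systems (0.52, exact permutation test, two-sided, p = 0.44).

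Counted together, 0 of the 7 tested genes were called between L-cDC2 and M-cDC2, where limma called 0.44% of all genes as lower. An unadjusted limma p under 0.05 was found for 1 of the 7 (Csf1r), and for 1201 of all 14538 genes. With voom on recovered reads, 0 of the 7 were called as well. Between CLP-cDC2 and CDP-cDC2, 5 of 7 were lower (Csf1r, Csf2ra, Csf2rb, Csf2rb2 and Cebpd) and 0 higher, against a background of 6.12% of all genes lower. The same 5 were lower in the average over both systems, where 2.41% of all genes were lower. The average is made of the 2 lineage differences, which for Csf2rb were -0.07 (L-cDC2 minus M-cDC2) and -1.47 (CLP-cDC2 minus CDP-cDC2). It is therefore not a separate result, and a call in it does not by itself show a difference shared by the systems. The median log2 difference of the 7 was -0.19 between L-cDC2 and M-cDC2 (all genes 0.04), -1.40 between CLP-cDC2 and CDP-cDC2 (all genes -0.01) and -0.77 in the average (all genes 0.03). The Csf2rb call in the average was lost when any of 6 single libraries was left out (L-cDC2 replicates 1 or 3, M-cDC2 replicates 1 or 2, CLP-cDC2 replicates 2 or 3; adjusted p up to 0.0883).

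**Figure D3:**
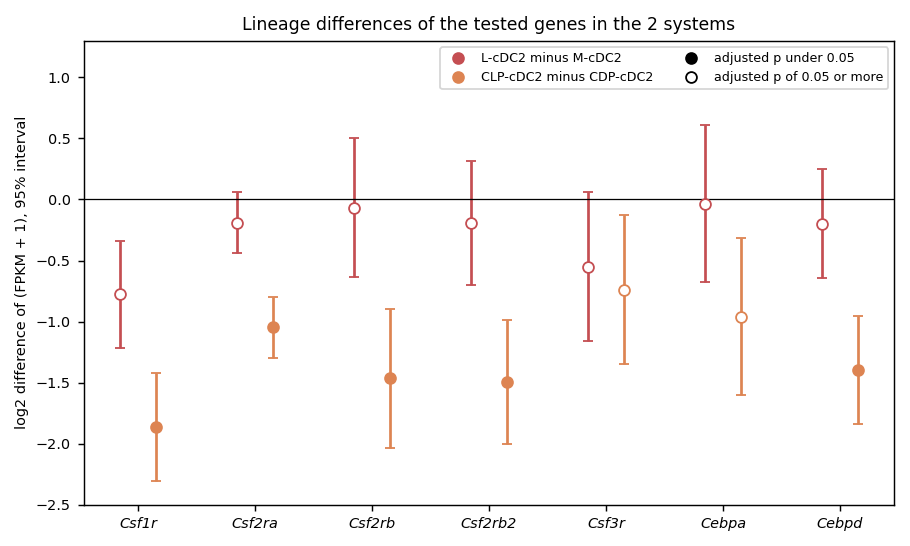
Log2 difference of (FPKM + 1) with its 95% interval for the 7 tested genes, L-cDC2 minus M-cDC2 (red) and CLP-cDC2 minus CDP-cDC2 (orange), over 3 libraries per group. Filled points are called at an adjusted p under 0.05: none of the red and 5 of the orange, all of them below 0.

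The lineage difference was itself tested for a change between systems. It was more negative in the transfer system for 5 of 7 genes, against a background of 3.61% of all genes: Csf2ra by -0.86 ± 0.16, Cebpd by -1.199 ± 0.29, Csf2rb2 by -1.30 ± 0.33, Csf1r by -1.09 ± 0.29 and Csf2rb by -1.40 ± 0.37 on the log2 scale (SE, limma adjusted p = 0.0128, 0.0321, 0.0389, 0.0444 and 0.0465). Csf3r differed by -0.19, with an interval of -1.05 to 0.68. The call of Csf2ra was lost in 1 of 22 other settings, and each of the other 4 was lost in 11 to 16. Leaving out L-cDC2 replicate 2 ended all 5 calls, with an adjusted p of 0.0511 for Csf2ra, and leaving out CDP-cDC2 replicate 3 kept 2.

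Across systems, within an origin, 2 genes were called as lower in the transferred cells of lymphoid origin. A different gene was called as higher in the transferred cells of myeloid origin, and none was called in both comparisons. Against L-cDC2, CLP-cDC2 had less Cebpd (log2 difference -0.92 ± 0.20, SE, limma adjusted p = 0.0136) and less Csf2ra (-0.43 ± 0.12, limma adjusted p = 0.0319), 2 of 7 genes where 6.32% of all genes were lower. Leaving out L-cDC2 replicate 2 (adjusted p = 0.0674), L-cDC2 replicate 3 or CLP-cDC2 replicate 2 ended the Cebpd call, and leaving out any 1 of the 6 libraries compared ended that of Csf2ra (adjusted p up to 0.138). Against M-cDC2, CDP-cDC2 had more Csf2rb2 (1.14 ± 0.23, SE, limma adjusted p = 0.0277), 1 of 7 genes where 1.62% of all genes were higher, and the other 6 had positive differences of 0.28 to 1.09 that were not called. Without CDP-cDC2 replicate 3 those of Csf1r (0.43), Csf2rb (0.58) and Cebpa (0.56) were smaller and that of Cebpd (0.53) was larger, and none was called. Leaving out CDP-cDC2 replicate 3 (adjusted p = 0.0733), CDP-cDC2 replicate 1 or any M-cDC2 library ended the Csf2rb2 call. CLP-cDC2 was compared with CDP-cDC2 and with L-cDC2 on the same CLP-cDC2 libraries, so these results are not independent. Donor progenitors, host and label all differ between the systems and cannot be told apart.

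The wider pathway was described from lists of its other genes. For comparison with the list counts, limma called 889 of all 14538 genes as lower and 1021 as higher in CLP-cDC2 than in CDP-cDC2. Of 8 ligands only Flt3l was tested, and the genes for CSF-1, GM-CSF and G-CSF stayed under 1 FPKM in every library. Among 10 related receptors 5 were tested, and Il6st, the gp130 chain, and Il6ra, its IL-6 partner, were lower in CLP-cDC2 than in CDP-cDC2, with 0 higher. Il6st averaged 3.63 ± 0.12 FPKM in CLP-cDC2 and 7.35 ± 1.84 in CDP-cDC2 (log2 difference -0.82 ± 0.17, SE, limma adjusted p = 0.00869). The Il6ra call (-0.74 ± 0.18, limma adjusted p = 0.0204) was lost without CLP-cDC2 replicate 2 (0.0838) or CDP-cDC2 replicate 3 (0.0675). The list median was -0.51 in the transfer system and 0.09 in the fate-labelled system. Il3ra, the chain that joins Csf2rb and Csf2rb2 in the IL-3 receptor, was not called (log2 difference of CLP-cDC2 minus CDP-cDC2 -0.18 ± 0.17).

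Of 15 kinases, STATs and adaptors below these receptors, 3 were lower in CLP-cDC2 than in CDP-cDC2, 0 were higher and 12 were not called, with a median log2 difference of -0.47 (all genes -0.01). The 3 were the adaptors Grb2 and Gab2 and the kinase Syk, and leaving out CDP-cDC2 replicate 3 (adjusted p = 0.0917) or any CLP-cDC2 library (up to 0.114) ended the Gab2 call. Grb2 averaged 19.8 ± 7.9 FPKM in CLP-cDC2 and 58.1 ± 6.6 in CDP-cDC2 (log2 difference -1.58 ± 0.26, SE, limma adjusted p = 0.00269). None of the 15 was called between L-cDC2 and M-cDC2, with a median of 0.25. An unadjusted limma p under 0.05 was found for 2 (Jak1 and Syk, both higher in L-cDC2), and for 1201 of all 14538 genes. Of 7 tested genes known to be induced by STAT3 or STAT5, Socs2, a feedback inhibitor, and Pim1, a survival kinase, were lower in CLP-cDC2 and 0 were higher. The Pim1 call was lost without CLP-cDC2 replicates 1 or 2 or CDP-cDC2 replicates 2 or 3 (adjusted p up to 0.123). Socs2 averaged 0.198 ± 0.119 FPKM in CLP-cDC2 and 1.49 ± 0.44 in CDP-cDC2 (log2 difference -1.04 ± 0.17, SE, limma adjusted p = 0.00266).

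**Figure D4:**
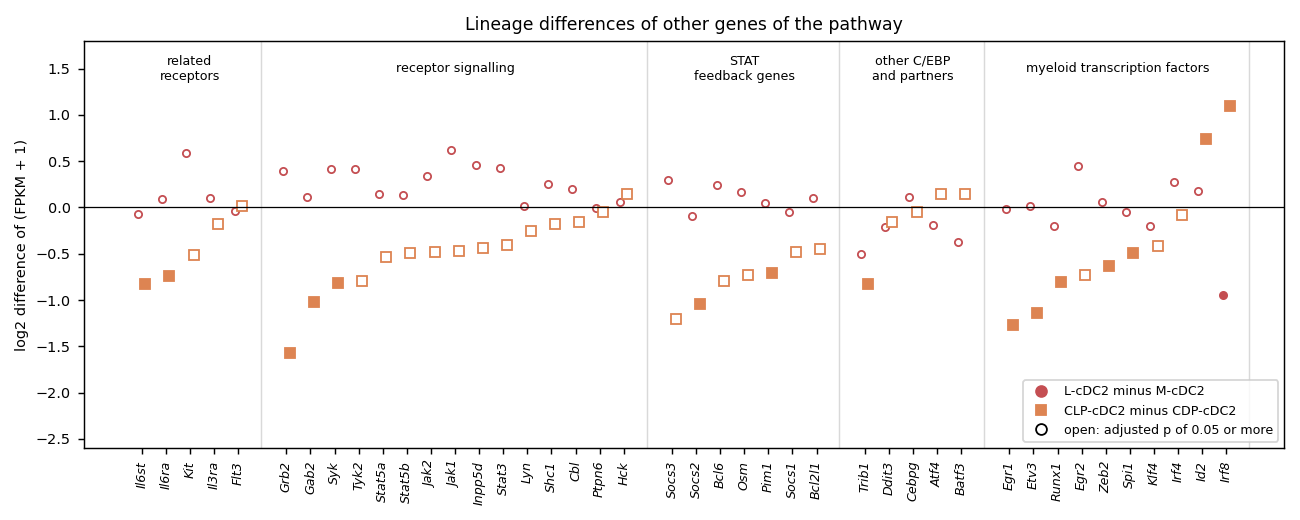
Log2 difference of (FPKM + 1) of tested pathway genes outside the 8 members, grouped by list and ordered within each list by the transfer system: L-cDC2 minus M-cDC2 (red circles) and CLP-cDC2 minus CDP-cDC2 (orange squares). Filled symbols are called at an adjusted p under 0.05; Irf8 is called in both systems, below 0 in red and above 0 in orange.

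Transcription factors that act with C/EBP proteins fell on both sides of 0. Of 10 tested, 5 were lower and 2 higher in CLP-cDC2 than in CDP-cDC2. Spi1, which encodes PU.1, is named here as the gene most like Cebpd in pattern. Its level was 271, 258 and 279 FPKM in CLP-cDC2 against 419, 406 and 318 FPKM in CDP-cDC2 (log2 difference -0.49 ± 0.12, SE). Spi1 was picked by its likeness to Cebpd over these same libraries, so its difference is not a separate result. Runx1 (-0.80 ± 0.15) and the ETS repressor Etv3 (-1.14 ± 0.20) were lower as well (limma adjusted p = 0.00503 and 0.00338). Id2 (0.74 ± 0.19) and Irf8 (1.096 ± 0.205), which are needed by type 1 dendritic cells, were higher in CLP-cDC2 (limma adjusted p = 0.0210 and 0.00502), and the Id2 call was lost without CLP-cDC2 replicates 1 or 2 or CDP-cDC2 replicates 2 or 3 (up to 0.0772). Of 7 tested type 1 dendritic cell markers, Irf8 among them, 4 were higher in CLP-cDC2 and 0 lower, where 1021 of all 14538 genes were higher. In L-cDC2 relative to M-cDC2 the same list went the other way. There 3 of 7 were lower and 0 higher (median log2 difference -0.60), where 0.44% of all genes were lower. The part of these markers in the result was not tested. Irf8 went the other way in the fate-labelled system, at 29.8 ± 1.3 FPKM in L-cDC2 and 58.3 ± 2.0 in M-cDC2 (log2 difference -0.95 ± 0.21, SE, limma adjusted p = 0.0333), a call lost without any 1 of those 6 libraries (adjusted p up to 0.185). Of 5 tested C/EBP relatives and regulators, Trib1, which directs C/EBP-alpha protein to degradation, was lower in CLP-cDC2 (0.468 ± 0.256 FPKM) than in CDP-cDC2 (1.58 ± 0.29 FPKM; log2 difference -0.82 ± 0.18, SE, limma adjusted p = 0.0109; 0.0509 without CLP-cDC2 replicate 2).

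Of 14 granulocyte genes only 3 were tested, since most were near 0. Lyz2, the lysozyme gene of myeloid cells, whose reads may be shared with its close copy Lyz1, was at 111, 99.4 and 108 FPKM in L-cDC2 against 286, 263 and 274 FPKM in M-cDC2, and at 41.8, 104 and 54.6 FPKM in CLP-cDC2 against 540, 401 and 486 FPKM in CDP-cDC2. It was lower in lymphoid cells of both systems without overlap (log2 differences -1.36 ± 0.24 and -2.91 ± 0.24, SE, limma adjusted p = 0.00869 and 3.4e-05), and the first of these calls was lost without L-cDC2 replicate 2 (0.0721) or replicate 3 (0.0569). Mmp9, a granule protease, was instead higher in L-cDC2 (14.1 ± 2.0 FPKM) than in M-cDC2 (6.43 ± 0.10 FPKM; log2 difference 1.01 ± 0.15, SE, limma adjusted p = 0.0024) and stood under 1 FPKM in every CLP-cDC2 and CDP-cDC2 library.

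The summed level of 8 plasmacytoid dendritic cell markers was 133 to 145 FPKM in L-cDC2 and 113 to 120 FPKM in M-cDC2, and 157 to 294 FPKM in CLP-cDC2 and 83.1 to 140.2 FPKM in CDP-cDC2, without overlap in either system. Of 6 tested, 2 were higher and 0 lower in CLP-cDC2 than in CDP-cDC2, where 1021 of all 14538 genes were higher. The part of these markers in the receptor result was not tested. The summed level of 8 B and plasma cell genes was 949 to 1528 FPKM in L-cDC2 and 49.7 to 65.5 FPKM in M-cDC2, and 80.6 to 507 FPKM in CLP-cDC2 and 54.4 to 94.5 FPKM in CDP-cDC2. The sum of 8 T and NK cell genes was 197 to 283 FPKM in L-cDC2 and 1.26 to 3.08 FPKM in M-cDC2, and 7.04 to 19.4 FPKM in CLP-cDC2 and 0.887 to 8.33 FPKM in CDP-cDC2. Their part in the L-cDC2 levels of these genes was not tested. All 6 basophil and mast cell markers, from cells that use the IL-3 receptor strongly, were under 1 FPKM in every library, with a highest sum of 0.464 FPKM.

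Genes of like pattern were sought among 5809 protein-coding genes with a mean of at least 5 FPKM, by Pearson's r over the 12 libraries, which fall into the 4 groups and so share group differences. Csf2ra was most like Tgfbi (r = 0.97), Krt80 (0.97) and Pfkfb3 (0.96), and Csf1r was most like Pfkfb3 (0.94), Snx8 (0.94) and Pla2g7 (0.94). Csf2rb2 was most like Csf2rb (0.95), and Cebpd was most like Spi1 (0.96), Gadd45b (0.95) and Bcl3 (0.93). Csf3r was most like Lemd2 (0.93), Zfp36l2 (0.91) and Mapk3 (0.90), and Cebpa was most like Rab43, Rnf126 and Rin3 (0.93 each). Csf2rb was most like Niban1 (0.96), Atp6v0a2 (0.96) and Marcksl1 (0.96).

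The CLP-cDC2 to CDP-cDC2 result was recomputed under 23 other settings. Csf1r, Csf2ra, Csf2rb and Cebpd were called as lower in all 23 and Csf2rb2 in all 22 that tested it. Csf3r was called in 0 of 22 and Cebpa in 2 of 22, on recovered reads and without CDP-cDC2 replicate 2.

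**Figure D5:**
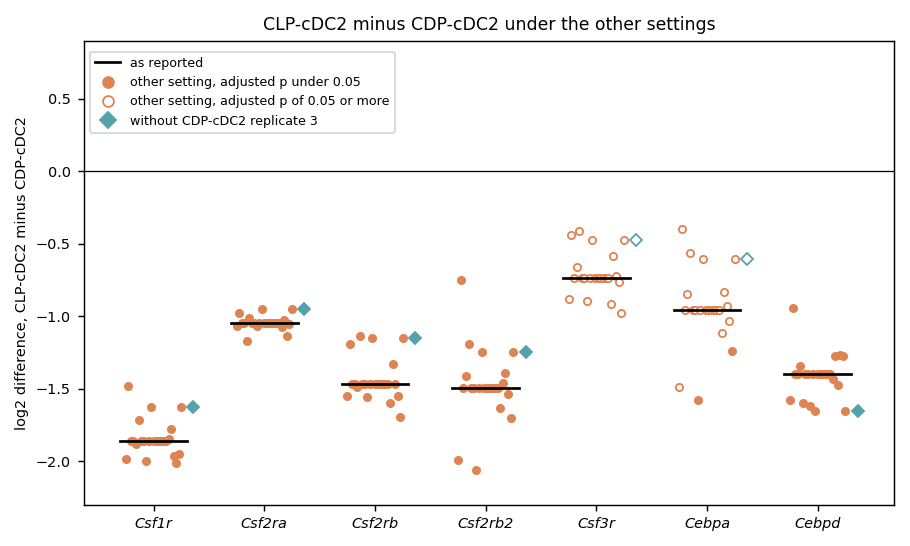
Log2 difference of CLP-cDC2 minus CDP-cDC2 for the 7 tested genes as reported (black line), under each other setting (orange; filled where called at an adjusted p under 0.05) and without CDP-cDC2 replicate 3 (diamond, also among the orange points). All values lie below 0, from -2.06 for Csf2rb2 to -0.40 for Cebpa, and the points of 5 genes are filled throughout.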

How the data were processed

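RNA of 12 samples of splenic cDC2 was purified (RNeasy micro), amplified as full-length cDNA (SMART-Seq HT) and tagged for sequencing with Nextera XT, according to the labels. The authors deposited 1 table of FPKM for 55322 genes, with every FPKM column mapped to a sample. The submitters' processing notes list STAR 2.7.9a, featureCounts 2.0.1, cutadapt 3.7, Trim Galore 0.6.7, DESeq2 1.20.0 and Trimmomatic 0.39 beside the builds GRCm38 and GRCh38, without saying what each was used for. Only 1462 of 52046 gene identifiers shared with GENCODE M21 had its GRCm38 start, so the deposited coordinates were not combined with that build.

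FPKM values were steps of 0.01 read, from which assigned reads were recovered, and 44.8 to 53.2% of genes above 0 held whole reads. For this, the most frequent low value of a library was taken as 1 read.

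Log2(FPKM + 1) of the 14538 genes with at least 1 FPKM in at least 3 libraries was fitted with limma 3.58.1 in R 4.3.3 over all 4 groups with an intensity trend, and p-values were adjusted by Benjamini-Hochberg over all of them. The fit was tested on simulated data. Ratios used 0.1 FPKM and exact permutation tests. Of each fixed list, up to 4 genes called in a lineage comparison were named, by smallest adjusted p, and 3 genes of like pattern per member. Members and lists were chosen with earlier results of these data known. Promoters are from RefSeq (GRCm38.p6). Alternatives were other pseudocounts and filters, quantile normalization, array weights, no trend, voom on recovered reads, a replicate block, fits of 2 groups and leaving out libraries.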

Additional observations from a re-analysis of the deposited data

Results flagged for a closer look

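Outside the markers of other cells, the lineage difference of 15 named genes differed between the transfer and the fate-labelled system by limma's test of that difference itself. Over all 14538 genes, the same test called 346 as more positive and 525 as more negative in the transfer system. List genes were named because a lineage comparison or the origin average called them. The difference is built from the same values, so the count of 15 is not a result about these genes. Each value below is the log2 difference of CLP-cDC2 minus CDP-cDC2 less that of L-cDC2 minus M-cDC2. Among the receptor and C/EBP genes it was -1.09 for Csf1r, -0.86 for Csf2ra, -1.40 for Csf2rb, -1.30 for Csf2rb2 and -1.20 for Cebpd. Among signalling and feedback genes it was -1.97 for Grb2 (adjusted p = 0.0128), -1.24 for Syk (0.0171) and -0.95 for Socs2 (0.0430). Among transcription factors it was -1.15 for Etv3 (0.0337) and 2.04 for Irf8 (0.00278), which fell in L-cDC2 relative to M-cDC2 and was higher in CLP-cDC2 than in CDP-cDC2. Among granulocyte genes it was -1.55 for Lyz2 (0.0233) and -1.39 for Mmp9 (0.00415). Among cDC2 markers it was -1.53 for Cd209a (0.0269), -1.57 for Clec10a (0.00494) and -1.74 for Sirpa (0.0141), so markers of the cells themselves shifted beside the receptor genes, and their part in the receptor result was not tested. These calls were lost in 16 of 21 other settings for Socs2, 12 of 22 for Etv3, 7 of 22 for Lyz2 and 7 of 22 for Cd209a. Of the markers of other cells, 4 of 7 tested type 1 dendritic cell markers (Irf8 among them) had a more positive difference in the transfer system, 4 of 7 B and plasma cell and 4 of 6 T and NK cell markers a more negative one, and of 9 monocyte and macrophage markers 1 was more positive and 1 more negative.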

How the results depend on the processing

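The 5 calls between CLP-cDC2 and CDP-cDC2 were kept under every alternative that tested the gene, with 4 to 6 of the 8 genes called, and the origin average had 4 to 6. Between L-cDC2 and M-cDC2, where 0 were called, 1 (Csf1r) was called with array weights (adjusted p = 0.000799), with only the 2 groups in the fit (0.0402) and without M-cDC2 and CDP-cDC2 replicates 3 together (0.0236), and leaving out single libraries gave 0 to 1. For the difference between the systems (5 called) there were 3 with a pseudocount of 5, 1 with no filter, 1 with quantile normalization, 1 with the replicate block, 3 with no trend, 2 without M-cDC2 and CDP-cDC2 replicates 3 together, and 0 to 5 without single libraries. For CLP-cDC2 minus L-cDC2 (2 called) there were 0 with no filter, 1 with no trend, 0 to 3 without single libraries, and 3, with Csf3r added, with a pseudocount of 0.1, quantile normalization, array weights, voom and without M-cDC2 and CDP-cDC2 replicates 3 together. For CDP-cDC2 minus M-cDC2 (1 called) there were 0 with a filter of 5 FPKM, 0 with no filter, 7 with array weights, 0 with the replicate block, 3 with voom on recovered reads, 0 with only the 2 groups in the fit, 0 without M-cDC2 and CDP-cDC2 replicates 3 together and 0 to 4 without single libraries. The Csf2rb2 share fell by 0.67 points with a pseudocount of 1 (p = 0.39, exact permutation test). The cause of these changes was not tested.

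Uncalled differences that changed sign were those of Cebpa between L-cDC2 and M-cDC2 (0.10 with array weights, 0.0437 without M-cDC2 and CDP-cDC2 replicates 3 together, -0.19 to 0.12 without single libraries), Csf2rb between the same groups (-0.27 to 0.0532 without single libraries), Cebpa between CLP-cDC2 and L-cDC2 (0.11 with quantile normalization, 0.0791 with array weights, -0.16 to 0.14 without single libraries) and the system difference of Csf3r (0.0235 with quantile normalization, 0.18 with array weights, 0.0516 with voom, 0.13 without M-cDC2 and CDP-cDC2 replicates 3 together, -0.42 to 0.0752 without single libraries). Libraries with the same replicate number correlated by -0.22 to 0.13 between L-cDC2 and M-cDC2 and by -0.03 to 0.28 between CLP-cDC2 and CDP-cDC2, so the correlations do not show a pairing, and the labels give none. Of these 6 pairs, CLP-cDC2 and CDP-cDC2 replicates 2 and 3 each correlated best with their own number. With the replicate block, 0 genes were called between L-cDC2 and M-cDC2, 5 between CLP-cDC2 and CDP-cDC2 and 4 in the origin average. Over all genes, limma called 1910 between CLP-cDC2 and CDP-cDC2 (687 to 2337 under other settings, 978 to 1974 without single libraries) and 252 between L-cDC2 and M-cDC2 (137 to 838, and 96 without L-cDC2 replicate 2 to 289 without CDP-cDC2 replicate 3). Depth limits Cebpb most, at 6 to 85.2 reads in 11 libraries.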
